A study of Homo sapiens with 14 samples.

Results

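Replication-dependent histone genes supply the core histones H2A, H2B, H3 and H4 and the linker histone H1 that package new DNA. As background, most of them stand in dense clusters, have no introns, are transcribed mainly in S phase and end their mRNAs in a stem-loop in place of a poly(A) tail. The protein NPAT, activated by cyclin E and CDK2, gathers at these clusters in the histone locus body and drives their transcription. The members were all rows of the deposited count table whose gene symbol began with HIST1H, HIST2H, HIST3H or HIST4H, which gave 76 of 28159 genes. The rule uses the symbol alone. They occupied 72 distinct windows of 1000 bp, because 8 rows shared 4 windows with another member. There were 6 H1, 18 H2A, 21 H2B, 16 H3 and 15 H4 genes. Of these, 56 lay on chromosome 6, 19 on chromosome 1 and 1 on chromosome 12, in 9 clusters separated by more than 200 kb. RefSeq called 71 of them protein coding and 5 transcribed pseudogenes.

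ChIP-seq with an antibody to Ser5-phosphorylated RNA polymerase II, the form found at promoters, was made from HCT116, a human colorectal carcinoma line with wild-type p53. Electroporation preceded every treatment, and the 4 conditions were 10 µM Nutlin3a with peptide (1 ChIP library), 0.1% DMSO with peptide (1), 10 µM Nutlin3a without peptide (2) and 0.1% DMSO without peptide (2), all for 3 h. The peptide is a stapled peptide made to block the binding of p53 to Mediator, given at 10 µM during electroporation and again at 200 nM in the medium, and Nutlin3a frees p53 from its inhibitor MDM2. Each condition also had 2 input libraries of sheared chromatin without immunoprecipitation. Both peptide ChIP libraries carry replicate number 2. Nothing in the labels says whether replicate numbers mark separate cultures or a shared batch, so each p-value reflects the spread between libraries, which may be technical. The line is a bulk culture, and in bulk ChIP fewer cells with polymerase at a gene and less polymerase per cell cannot be told apart.

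Total counts over all windows were 1290223 to 2240951 in ChIP and 161719 to 359276 in input libraries. Levels are given as CPM, the count of a window divided by its library's TMM-scaled total, and since every window has the same length they can be compared between genes. Epithelial markers lay between 25.2 and 343.8 CPM in the ChIP libraries, with 3 of 4 over input (CDH1 was the exception), and 9 markers of other cell types lay between 0 and 18.4 CPM with 0 of them over input. CDKN1A, the p53 target used as a check of Nutlin3a, had 249 and 357 CPM in the Nutlin3a libraries without peptide, against 107 and 125 CPM in the DMSO libraries. Its log2 fold change was 1.39 ± 0.25 (SE, n = 2 each; edgeR adjusted p = 0.109), in a window that overlaps that of DINOL.

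Stretches of promoter show letters that the classes share, in genes over input and in genes not over input. They are read from RefSeq on GRCh38.p14, on the strand of the gene, and each ends at the base before the transcription start. Capitals mark the TATA box TATAAA, the CCAAT box, the octamer ATTTGCAT bound by OCT1, the letters GTCCG within the H4 site bound by HINFP, and the H1 box AAACACA. The first pair are H1 genes, HIST1H1E with polymerase far over input and HIST1H1D with a level below input.
HIST1H1E, chr6:26156209-26156328, plus strand: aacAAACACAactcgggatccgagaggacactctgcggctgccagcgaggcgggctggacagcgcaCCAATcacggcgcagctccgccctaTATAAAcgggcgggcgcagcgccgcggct
HIST1H1D, chr6:26234988-26235107, minus strand: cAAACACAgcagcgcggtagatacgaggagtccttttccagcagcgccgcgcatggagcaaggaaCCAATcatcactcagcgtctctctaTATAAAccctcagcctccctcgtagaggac
HIST1H2BJ, chr6:27132796-27132995, minus strand: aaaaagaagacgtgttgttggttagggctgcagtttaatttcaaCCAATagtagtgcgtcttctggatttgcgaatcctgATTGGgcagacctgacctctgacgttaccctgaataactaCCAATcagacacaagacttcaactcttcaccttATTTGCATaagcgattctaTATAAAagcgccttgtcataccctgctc
HIST1H2BB, chr6:26043714-26043833, minus strand: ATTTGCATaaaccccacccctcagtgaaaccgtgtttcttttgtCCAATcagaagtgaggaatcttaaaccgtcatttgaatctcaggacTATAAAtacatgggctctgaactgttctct
HIST2H3D, chr1:149813694-149813793, minus strand: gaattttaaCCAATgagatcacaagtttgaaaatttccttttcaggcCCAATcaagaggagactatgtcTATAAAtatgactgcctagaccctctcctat
HIST1H4J, chr6:27823992-27824091, plus strand: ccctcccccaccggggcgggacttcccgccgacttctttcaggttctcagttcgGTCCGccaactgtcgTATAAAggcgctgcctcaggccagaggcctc
HIST1H4K, chr6:27831561-27831660, minus strand: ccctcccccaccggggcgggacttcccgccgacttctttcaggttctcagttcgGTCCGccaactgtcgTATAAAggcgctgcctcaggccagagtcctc
HIST1H4F, chr6:26240293-26240392, plus strand: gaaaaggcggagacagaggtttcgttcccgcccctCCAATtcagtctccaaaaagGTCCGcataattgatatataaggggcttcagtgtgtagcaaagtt
HIST1H2BJ and HIST1H2BB are an H2B pair of which the second gene had no polymerase over input, HIST2H3D was the second highest H3 window, and HIST1H4J and HIST1H4K were high H4 windows set beside the low HIST1H4F. ATTGG in HIST1H2BJ is CCAAT read on the other strand. The octamer begins 47 bases before the start in HIST1H2BJ and 120 bases before it in HIST1H2BB. Other H2B genes had the opposite order. There the octamer begins 48 bases before the start in HIST1H2BG, not over input, and 123 bases before it in HIST1H2BC, over input. HIST1H4F has CCAAT and no exact TATAAA, while HIST1H4J and HIST1H4K have TATAAA and no CCAAT. The HIST1H4F stretch does hold the similar letters tatataag, which a search for exact letters does not count. Other H4 genes differed from this contrast in TATAAA. HIST2H4A, over input, has none, and HIST1H4L, not over input, has it. The HIST1H4J and HIST1H4K stretches were identical at 99 of 100 bases. Read on the strand of each gene, 12 of 64 distinct member promoters shared an identical run of 75 bases with another member. Divergent H2A and H2B promoters that cover the same bases on opposite strands are not in that count. How reads from near-identical copies were assigned is not given in the sources used here, so counts of near-identical genes are uncertain.

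Promoter sequences from 250 bases before to 50 after the start were available for 66 of the 76 genes, 64 of them distinct, and were searched on both strands beside all 34796 distinct promoters of the same table. TATAAA was in 67.2% of the histone promoters, against 11.6% of all promoters. Between 40 and 20 bases before the start it was in 56.2% of histone promoters, against 2.31% of all. CCAAT was in every H1, H2A, H2B and H3 promoter but in 3 of 12 H4 promoters, and in 34.6% of all promoters. The octamer was in 11 of 16 H2A and 14 of 18 H2B promoters, against 1.76% of all. It was in 1 of 13 H3 promoters and in 0 of the H1 and H4 promoters. The H3 match is HIST1H3D, whose promoter entry is the same stretch as that of HIST1H2AD, so it counts in both classes. In H2A every octamer match but that of HIST1H2AM was on the other strand. Divergent H2A and H2B promoters share bases, so 1 octamer can count in both classes. For example, the octamer 46 bases before the HIST2H2BE start is the reverse-strand match 197 bases before the HIST2H2AC start. GTCCG was in 11 of 12 H4 promoters, against 28.8% of all, and AAACACA was in 6 of 6 H1 promoters, against 5.66% of all. In HIST1H1A the only AAACACA match was on the other strand, 183 bases before the start, while the other H1 promoters had it on the strand of the gene. These letters stood in members not over input too. The octamer was in 16 of 41 promoters of windows over input and in 9 of 23 of the other windows, and CCAAT was in 34 of 41 and 21 of 23. These pooled shares mix the classes. Within H2A the octamer was in 8 of 13 promoters over input and 3 of 3 others, and within H2B in 8 of 12 and 6 of 6. Within H4, CCAAT was in 0 of 7 promoters over input and 3 of 5 others. TATAAA near the start was in 65.9% of all member promoters over input and in 39.1% of the others. A match is a description of the letters, and the shares were not tested.

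Polymerase was over input at most, but far from all, of the histone windows. Of 72 windows, 47 were higher in ChIP than in input, 4 were lower, 17 were neither and 4 had too few counts to be tested (edgeR quasi-likelihood test on all 14 libraries, Benjamini-Hochberg adjusted p under 0.05). The 4 untested windows were HIST1H1B, HIST1H2AA, HIST1H2APS1 and HIST1H3I, and they stay in the totals by class and chromosome below. Over the 21504 windows tested genome-wide, 25.1% were higher and 15.5% lower. The 47 windows had mean ChIP levels of 43.7 to 1036 CPM with a median of 181 CPM, and the other 25 had 3.69 to 31.2 CPM with a median of 8.31 CPM. The call rests on the same ChIP counts and the 25 include the 4 untested windows, so a gap between these ranges is partly built in. Log2 fold changes over input in the 47 ran from 1.02 to 3.57. The call used the mean of the 4 ChIP conditions against the mean of the 4 inputs.

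**Figure D1:**
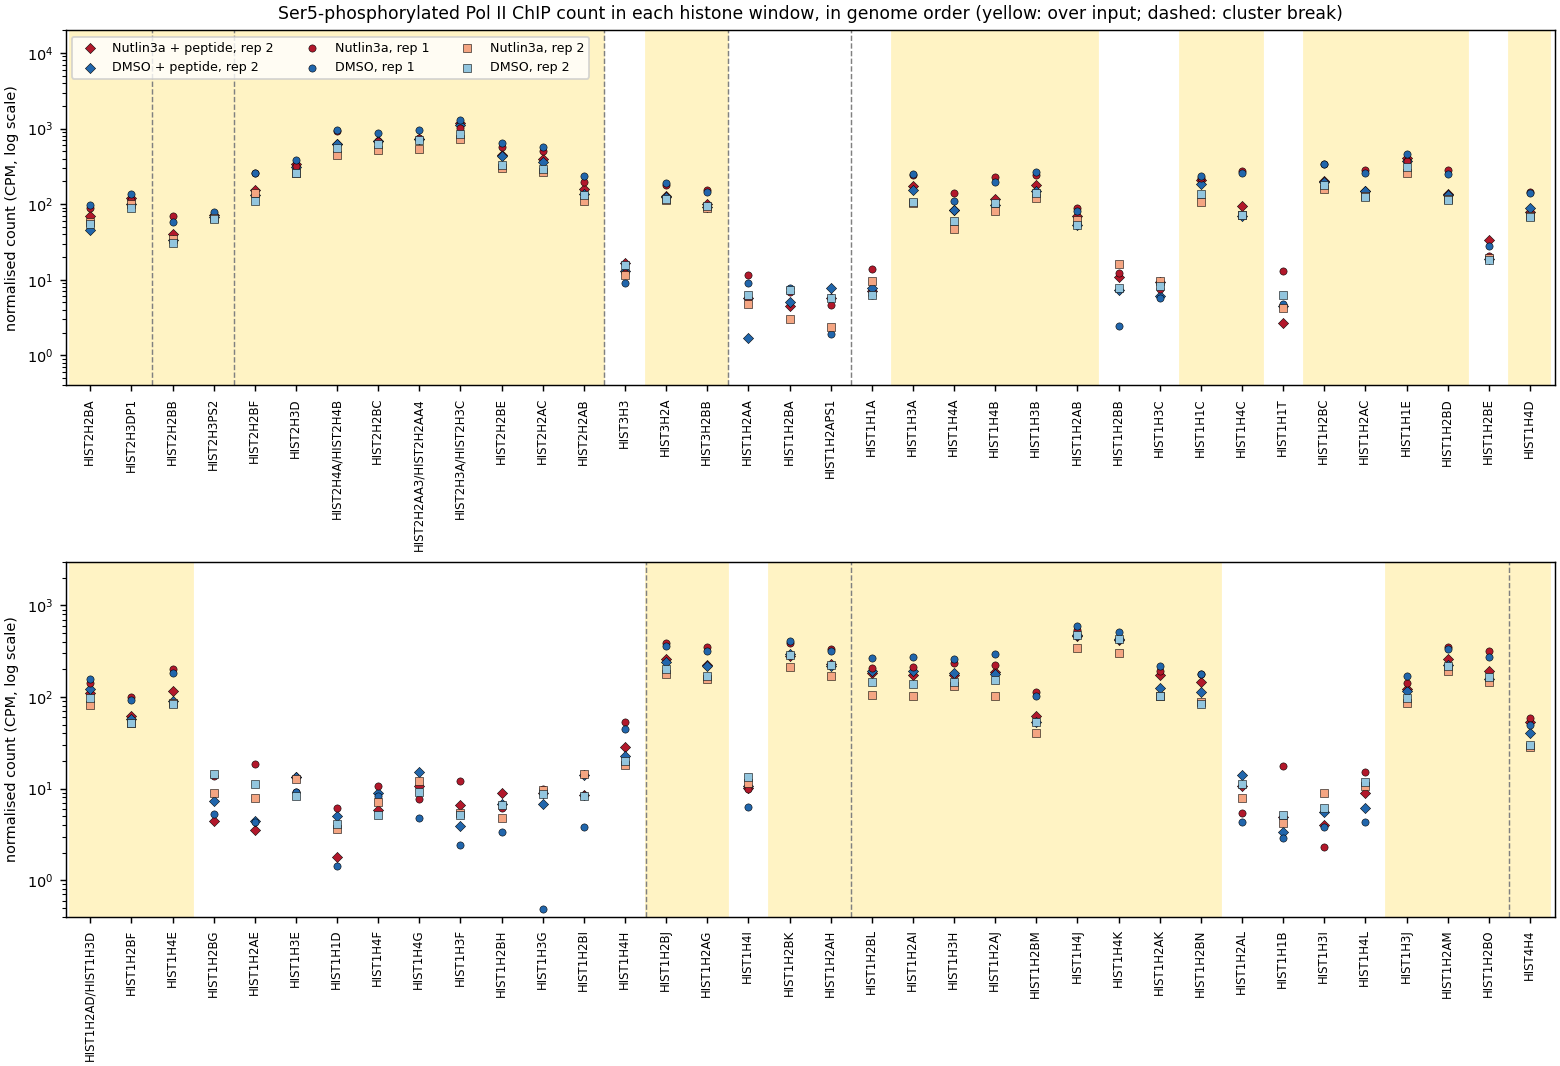
CPM of each of the 72 histone windows (x axis, in genome order over the 2 panels) in the 6 ChIP libraries (log y axis), with windows over input on yellow and breaks between clusters dashed. Windows over input average 43.7 CPM or more and the others 31.2 CPM or less, a split made with the same counts. Both kinds alternate along chromosome 6.

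The linker histone genes had the lowest class median, 7.41 CPM over 6 windows, against 93.0 to 161 CPM in the core classes. HIST1H1E had 402 CPM in Nutlin3a with peptide, 372 CPM in DMSO with peptide, 377 and 258 CPM in the Nutlin3a replicates 1 and 2, and 454 and 308 CPM in the DMSO replicates 1 and 2. Its ChIP level was 11.9-fold the input (95% interval 7.89 to 17.8; edgeR adjusted p = 9.7e-11), the largest fold of any member. HIST1H1C, the gene for H1.2, had 211, 182, 219, 108, 235 and 135 CPM in the same order of libraries and a log2 fold change over input of 2.44 ± 0.26 (SE; edgeR adjusted p = 1.1e-08). The other H1 genes were near the floor in every library. HIST1H1A averaged 8.47 CPM, the testis-specific HIST1H1T 5.89 CPM, HIST1H1B 6.35 CPM and HIST1H1D 3.69 CPM. HIST1H1D was lower than input, with a log2 fold change of -2.00 ± 0.73 (SE; edgeR adjusted p = 0.031). Thus 2 of 6 H1 windows were over input, with HIST1H1B not tested.

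Among core histones, 13 of 17 H2A windows, 15 of 21 H2B windows, 9 of 15 H3 windows and 9 of 14 H4 windows were over input, with 1 window counted under both H2A and H3 because HIST1H2AD and HIST1H3D share it. The highest window of all was the one shared by HIST2H3A and HIST2H3C, copies of an H3 gene, with 1199 CPM in Nutlin3a with peptide, 1123 CPM in DMSO with peptide, 1029 and 725 CPM in the Nutlin3a replicates 1 and 2, and 1286 and 856 CPM in the DMSO replicates 1 and 2. Next came HIST2H2AA3/HIST2H2AA4 with a mean of 737 CPM, HIST2H4A/HIST2H4B with 691 CPM and the pseudogene HIST2H2BC with 679 CPM. The HIST2H2BC window overlaps that of HIST2H2AA3/HIST2H2AA4, so the same reads count in both. In the table the paired copies of HIST2H3, HIST2H4 and HIST2H2AA each carry the window of 1 copy, although RefSeq places the other copy elsewhere on chromosome 1. On chromosome 6 the highest were HIST1H4J with 482 CPM and HIST1H4K with 421 CPM, the near-identical pair printed above.

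The chromosome 1 genes were occupied almost throughout, with 15 of 16 windows over input, against 31 of 55 on chromosome 6. All 9 windows of the cluster at chr1:149812074-149888616 (hg38) were over input, with a median of 453 CPM. The exception on chromosome 1 was HIST3H3, the testis H3 gene, with 9.16 to 16.5 CPM over the 6 libraries and a mean of 12.9 CPM. Its neighbours HIST3H2A and HIST3H2BB, a divergent pair in the same cluster, averaged 143 and 112 CPM. The remaining chromosome 1 windows, HIST2H2BA, HIST2H3DP1, HIST2H2BB and HIST2H3PS2, averaged 68.9, 111, 44.3 and 69.8 CPM and were over input. The lone chromosome 12 gene HIST4H4 averaged 43.7 CPM and was 3.48-fold over input (95% interval 1.99 to 6.09; edgeR adjusted p = 7.0e-04).

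On chromosome 6, windows over input and windows not over input came in runs. The longest run without polymerase over input held 11 consecutive windows from HIST1H2BG to HIST1H4H (chr6:26216345-26286199, 69.9 kb), with members of all classes and means of 3.69 to 31.2 CPM. It holds the 4 windows that were lower than input, HIST1H1D, HIST1H4F, HIST1H3F and HIST1H2BH. Directly upstream, the 4 windows from HIST1H4D to HIST1H4E averaged 69.1 to 126 CPM and all were over input. A second run of 4 windows, HIST1H2AL, HIST1H1B, HIST1H3I and HIST1H4L (chr6:27865029-27874211), had means of 5.16 to 9.56 CPM, between 9 windows over input on one side and 3 on the other. The 3 windows of the small cluster at chr6:25726263-25733132, with the testis-specific HIST1H2AA and HIST1H2BA and the pseudogene HIST1H2APS1, averaged 4.70 to 6.52 CPM. Between the first and last chromosome 6 member stood 32 windows of other genes, with a median of 8.77 CPM and 3 of 24 tested over input.

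The divergent H2A and H2B genes share a promoter region, and their windows share reads. In all, 27 windows overlapped another member's window, and after merging the members covered 58 separate stretches, so members are not independent of each other. HIST2H2BE and HIST2H2AC, for example, had mean levels of 453 and 397 CPM from largely the same bases. The windows were also placed without regard to strand. The start site lay within 20 bp of 300 bp from the left end in 87% of plus-strand genes and 91.2% of minus-strand genes, so a minus-strand window holds mostly upstream sequence. The members over input were 17 of 27 on the plus strand with a median of 182 CPM and 22 of 35 on the minus strand with a median of 183 CPM. Of 10 windows with no strand entry, 8 were over input with a median of 116.5 CPM.

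**Figure D2:**
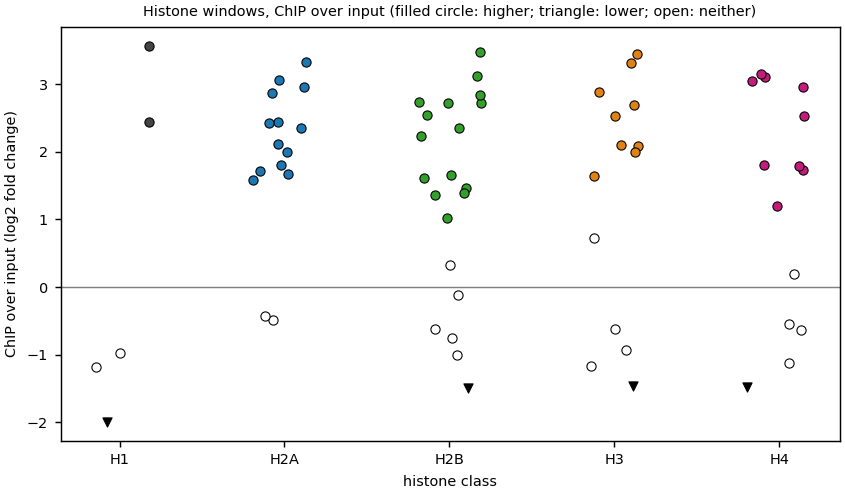
Log2 fold change of ChIP over input for each tested histone window (y axis) by class (x axis), with filled circles for windows higher than input, triangles for windows lower and open circles for neither; the window shared by HIST1H2AD and HIST1H3D appears under H2A and H3. Windows over input lie between 1.02 and 3.57 in the 5 classes.

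Nutlin3a without peptide moved no histone window past the threshold. By edgeR, 0 of 72 windows were called, where 0.00772% of all 25901 windows were. DESeq2 called 0 as well, and 1 window had an unadjusted p under 0.05. That window was HIST1H2BB, with 12.2 and 16.2 CPM in the Nutlin3a replicates 1 and 2, against 2.41 and 7.73 CPM in the DMSO replicates, near the floor and not over input. Its log2 fold change was 1.49 ± 0.62 (SE, n = 2 each; edgeR adjusted p = 0.98). Among the 47 windows over input, the median log2 fold change was -0.08 with values from -0.46 to 0.23 and 16 of 47 above 0, where the 5407 windows over input genome-wide had a median of -0.18. The 95% intervals of these 47 windows all ended within 2.24-fold in either direction.

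The windows nearest to a lower call were HIST1H2AJ, HIST1H4K and HIST2H2AA3/HIST2H2AA4, all core histone genes over input. HIST1H2AJ had 226 and 102 CPM in the Nutlin3a replicates 1 and 2, against 294 and 153 CPM in the DMSO replicates, and HIST1H4K had 442 and 299 CPM against 509 and 424 CPM. In both genes the treatments overlapped, because each replicate 1 library stood above its replicate 2 partner. Their log2 fold changes were -0.46 ± 0.33 and -0.33 ± 0.25 (SE; edgeR adjusted p = 0.98 for both). By class, the median of the windows over input was -0.23 in H1 (2 windows), -0.10 in H2A (13), -0.02 in H2B (15), -0.17 in H3 (9) and 0.02 in H4 (9). Within replicate 1 the 47 windows had a median log2 ratio of -0.07, where all windows over input had -0.26, and within replicate 2 they had -0.17, where all windows over input had -0.08.

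The size and direction of these values changed with the library left out. Without Nutlin3a replicate 1 the median of the 47 was -0.64. In that fit HIST1H4C, HIST1H2AJ, HIST1H2AI and HIST1H2BL had log2 fold changes of -1.22, -1.14, -1.01 and -1.01 (the last pair were named after their values were seen). That fit sets 1 Nutlin3a library, of replicate 2, against DMSO libraries of both numbers, with the spread taken from the DMSO pair. The difference between replicates therefore enters these values, and they are given without a test. Without Nutlin3a replicate 2 the median was 0.31, without DMSO replicate 1 it was 0.37 and without DMSO replicate 2 it was -0.42. Each of these fits also sets 1 library against 2 of the other treatment, so the difference between replicates enters these medians as well. With the constants that the authors applied to the libraries, the median over all windows shifted to 0.53 and that of the 47 to 0.51, all 47 above 0, with 0 windows called. With a mean count of at least 50 required of each window it was 0.08.

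Replicate 1 stood above replicate 2 at most of the occupied histone windows. In a fit with replicate number as a term, which was added after the data were seen, 41 of 72 histone windows were higher in replicate 1 than in replicate 2 and 0 were lower (edgeR adjusted p under 0.05). Over all windows 3.27% were called, 2.62% higher and 0.649% lower, and among windows over input 4.01% were higher and 0.721% lower. The called members were 40 of the 47 windows over input plus HIST1H4H. The median over the 47 was 0.91 on the log2 scale, a 1.88-fold higher level in replicate 1, and 47 of 47 were above 0, with a range of 0.23 to 1.88. The term rests on the 4 libraries without peptide and has 1 residual degree of freedom. DESeq2 called 16 of 72 members in the same design, all higher, and 106 of all windows where edgeR called 846.

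HIST1H4C, an H4 gene often used as a marker of S-phase cells, differed most among the histone windows over input. It had 271 CPM (Nutlin3a) and 261 CPM (DMSO) in the replicate 1 libraries, against 95.5 CPM (Nutlin3a with peptide), 68.9 CPM (DMSO with peptide), 72.0 CPM (Nutlin3a) and 72.7 CPM (DMSO) in the replicate 2 libraries. Replicate 1 was higher in both treatments and the replicates did not overlap. The log2 fold change was 1.88 ± 0.20 (SE; edgeR adjusted p = 2.9e-18), or 3.67-fold with a 95% interval of 1.49 to 2.26 on the log2 scale. Among 10934 distinct windows that averaged over 30 CPM it ranked 34 by fold, and 8 of the 100 highest were histone windows, of 48 histone windows at that level. Of the 33 windows above it, 17 were of snRNA or snoRNA genes by symbol, such as RNU4-1 with a log2 fold change of 4.75 and SNORD118 with 4.65.

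Other classes showed the same direction. HIST1H3A, an H3 gene, had 244 CPM (Nutlin3a) and 252 CPM (DMSO) in replicate 1, against 174 CPM (Nutlin3a with peptide), 154 CPM (DMSO with peptide), 103 CPM (Nutlin3a) and 107 CPM (DMSO) in replicate 2, a log2 fold change of 1.24 ± 0.19 (SE; edgeR adjusted p = 1.8e-08). HIST1H2BD, an H2B gene, had 283 and 251 CPM in replicate 1, against 134, 134, 117 and 113 CPM in replicate 2 in the same order, a log2 fold change of 1.21 ± 0.19 (SE; edgeR adjusted p = 3.4e-08). In both genes the replicate 1 libraries stood above all replicate 2 libraries. HIST2H2AC, an H2A gene on chromosome 1, had 506 and 567 CPM in replicate 1, against 390, 363, 268 and 288 CPM in replicate 2. HIST1H1C had 219 and 235 CPM in replicate 1, against 211, 182, 108 and 135 CPM in replicate 2 (log2 fold change 0.90 ± 0.19, SE; edgeR adjusted p = 1.6e-04). HIST1H3A and HIST1H2BD, and HIST1H2BJ among the printed promoters, were named after their values were seen.

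The size varied among members. Among windows over input, the class medians were 1.05 in H4 (7 of 9 called), 0.94 in H2B (14 of 15), 0.85 in H2A (12 of 13), 0.75 in H3 (6 of 9) and 0.73 in H1 (2 of 2), all log2 fold changes of replicate 1 over replicate 2. The median was 0.71 on chromosome 1 (11 of 15 called) and 0.97 on chromosome 6 (28 of 31). Differences between classes and chromosomes were not tested. The 7 windows over input that were not called were HIST2H3DP1, HIST2H3PS2, HIST2H3D, HIST2H2BC, HIST1H2AB, HIST1H4J and HIST1H4K, with log2 fold changes of 0.23 to 0.57. HIST1H4J, with 544 and 591 CPM in replicate 1 against 465, 475, 340 and 476 CPM in replicate 2, had an edgeR adjusted p of 0.050, which did not pass. Its near-identical partner HIST1H4K had 0.15. HIST1H4H, at the end of the longest run not over input, was the called member not over input. It had 53.5 and 44.4 CPM in replicate 1, against 28.1, 23.0, 18.0 and 20.1 CPM in replicate 2.

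Both treatments showed the replicate difference. In Nutlin3a cells replicate 1 was 1.92-fold replicate 2 by the median of the 47 windows, and in DMSO cells 1.77-fold, with 47 of 47 windows above 1 in each. The 2 replicate 1 libraries stood above all 4 replicate 2 libraries in 41 of 47 windows over input, where 13.9% of all windows over input and 15.7% of all windows did. Summed over the 72 windows, histone genes held 1.44% (Nutlin3a) and 1.45% (DMSO) of counts in the replicate 1 libraries, against 1.13% (Nutlin3a with peptide), 1.07% (DMSO with peptide), 0.816% (Nutlin3a) and 0.930% (DMSO) in the replicate 2 libraries. In the input libraries the share was 0.252% to 0.297% in replicate 1 and 0.245% to 0.292% in replicate 2, so the replicates overlapped. The replicate 1 input was lower than its replicate 2 partner in DMSO without peptide and higher in the other conditions. By contrast, the 25 windows not over input held 0.0175% to 0.0313% of ChIP counts.

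**Figure D3:**
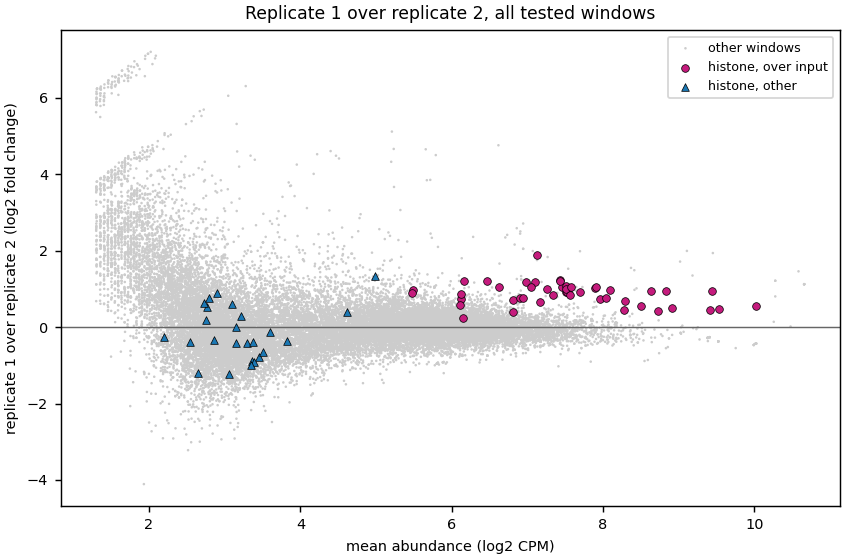
Log2 fold change of replicate 1 over replicate 2 (y axis) against mean abundance in log2 CPM (x axis) for all 25901 tested windows (grey), histone windows over input (magenta circles) and the other histone windows (blue triangles). The 47 magenta circles all lie above 0, between 0.23 and 1.88, while the grey points at the same abundance centre near 0.

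The peptide comparisons contain this replicate difference, because both peptide libraries are replicate 2 while the libraries without peptide are of both numbers. With peptide under DMSO, 0 of 72 windows passed the threshold (edgeR; 0 with unadjusted p under 0.05, 0 by DESeq2, and 0% of all windows called). The median log2 fold change of the 47 windows over input was -0.24, with 2 of 47 above 0, where all windows over input had a median of -0.09. Compared within replicate 2 alone, the same windows were mostly higher with peptide, with a median of 0.21 and 39 of 47 above 0, where all windows over input had a median of -0.03. The pooled and the within-replicate medians thus differ in sign, and the within-replicate values have no test, since 1 library stands against 1. HIST1H4C had 68.9 CPM in DMSO with peptide, against 261 and 72.7 CPM in the DMSO replicates 1 and 2 without it. Its pooled log2 fold change was -1.28 ± 0.65 (SE; edgeR adjusted p = 1.0), and its log2 ratio within replicate 2 was -0.07. Without DMSO replicate 2 its log2 fold change was -1.91. That fit sets 1 replicate 2 library with peptide against 1 replicate 1 library without it. It takes its spread from the Nutlin3a pair and cannot tell peptide and replicate apart. Without Nutlin3a replicate 1 the DMSO libraries of the pooled value gave -1.29, the spread then coming from the DMSO pair alone.

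Under Nutlin3a the peptide also moved 0 of 72 windows past the threshold (edgeR; 0 with unadjusted p under 0.05, 0 by DESeq2, and 0% of all windows called). The pooled median over the 47 was -0.07, with 21 of 47 above 0, where all windows over input had a median of 0.11 with 3745 of 5407 above 0. Within replicate 2 every one of the 47 was higher with peptide, with a median log2 ratio of 0.44 (1.35-fold) and a range of 0.10 to 0.96, where all windows over input had a median of 0.05. HIST2H3A/HIST2H3C had 1199 CPM with peptide, against 1029 and 725 CPM in the Nutlin3a replicates 1 and 2 without it, which made a pooled log2 fold change of 0.45 ± 0.32 (SE; edgeR adjusted p = 1.0) and a within-replicate ratio of 0.73. HIST1H1E had 402 CPM with peptide, against 377 and 258 CPM without it, with a pooled value of 0.34 ± 0.31 and a within-replicate ratio of 0.64. Both ratios use the Nutlin3a replicate 2 library, which had the lowest histone share of the 6. By class, the within-replicate median was 0.80 in H1 (2 windows), 0.43 in H2A (13), 0.40 in H2B (15), 0.43 in H3 (9) and 0.49 in H4 (9). Without Nutlin3a replicate 2, HIST1H4C had a log2 fold change of -1.52. There too 1 replicate 2 library with peptide stands against 1 replicate 1 library without it, with the spread from the DMSO pair. Peptide and replicate cannot be told apart in that fit.

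**Figure D4:**
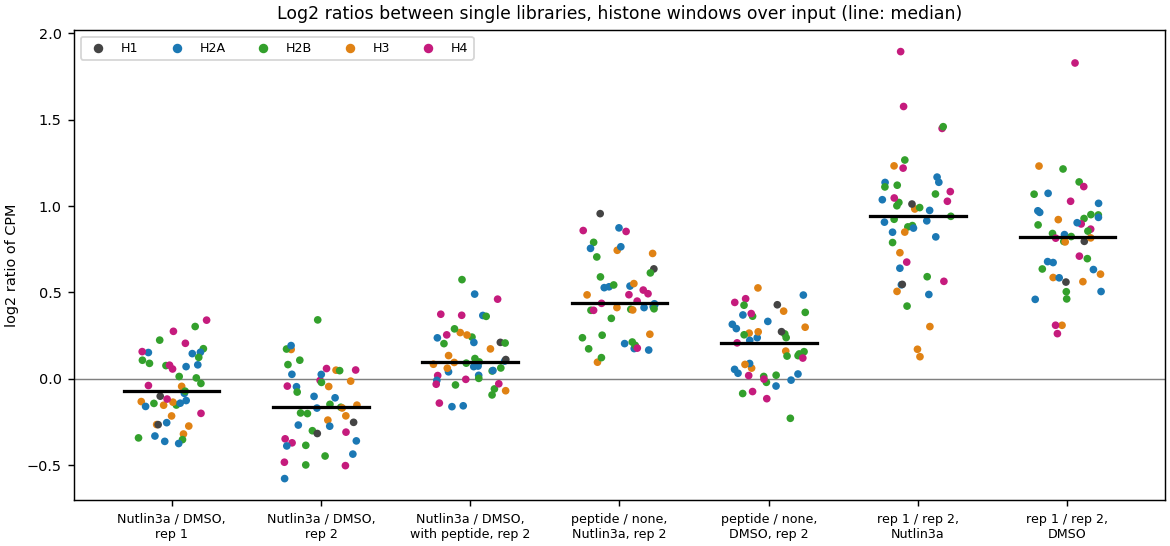
Log2 ratio of CPM between single libraries (y axis) for the 47 histone windows over input, coloured by class with the median as a line, for 7 pairs of libraries (x axis). The medians are -0.07, -0.17, 0.09, 0.44, 0.21, 0.94 and 0.82 from left to right.

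The difference of the Nutlin3a response with and without peptide was called in 0 of 72 windows (edgeR; 0 with unadjusted p under 0.05, 0 by DESeq2, and 0% of all windows called). Its median over the 47 was 0.24 on the log2 scale, with 42 of 47 above 0, and over all windows over input it was 0.20. Without DMSO replicate 1 that median was -0.24, without Nutlin3a replicate 2 it was -0.20, without DMSO replicate 2 it was 0.55 and without Nutlin3a replicate 1 it was 0.74. Between the lone Nutlin3a and DMSO libraries with peptide, the 47 windows had a median log2 fold change of 0.09 with 36 of 47 above 0, given as values with no test. The comparisons with and without peptide share the libraries without it.

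**Figure D5:**
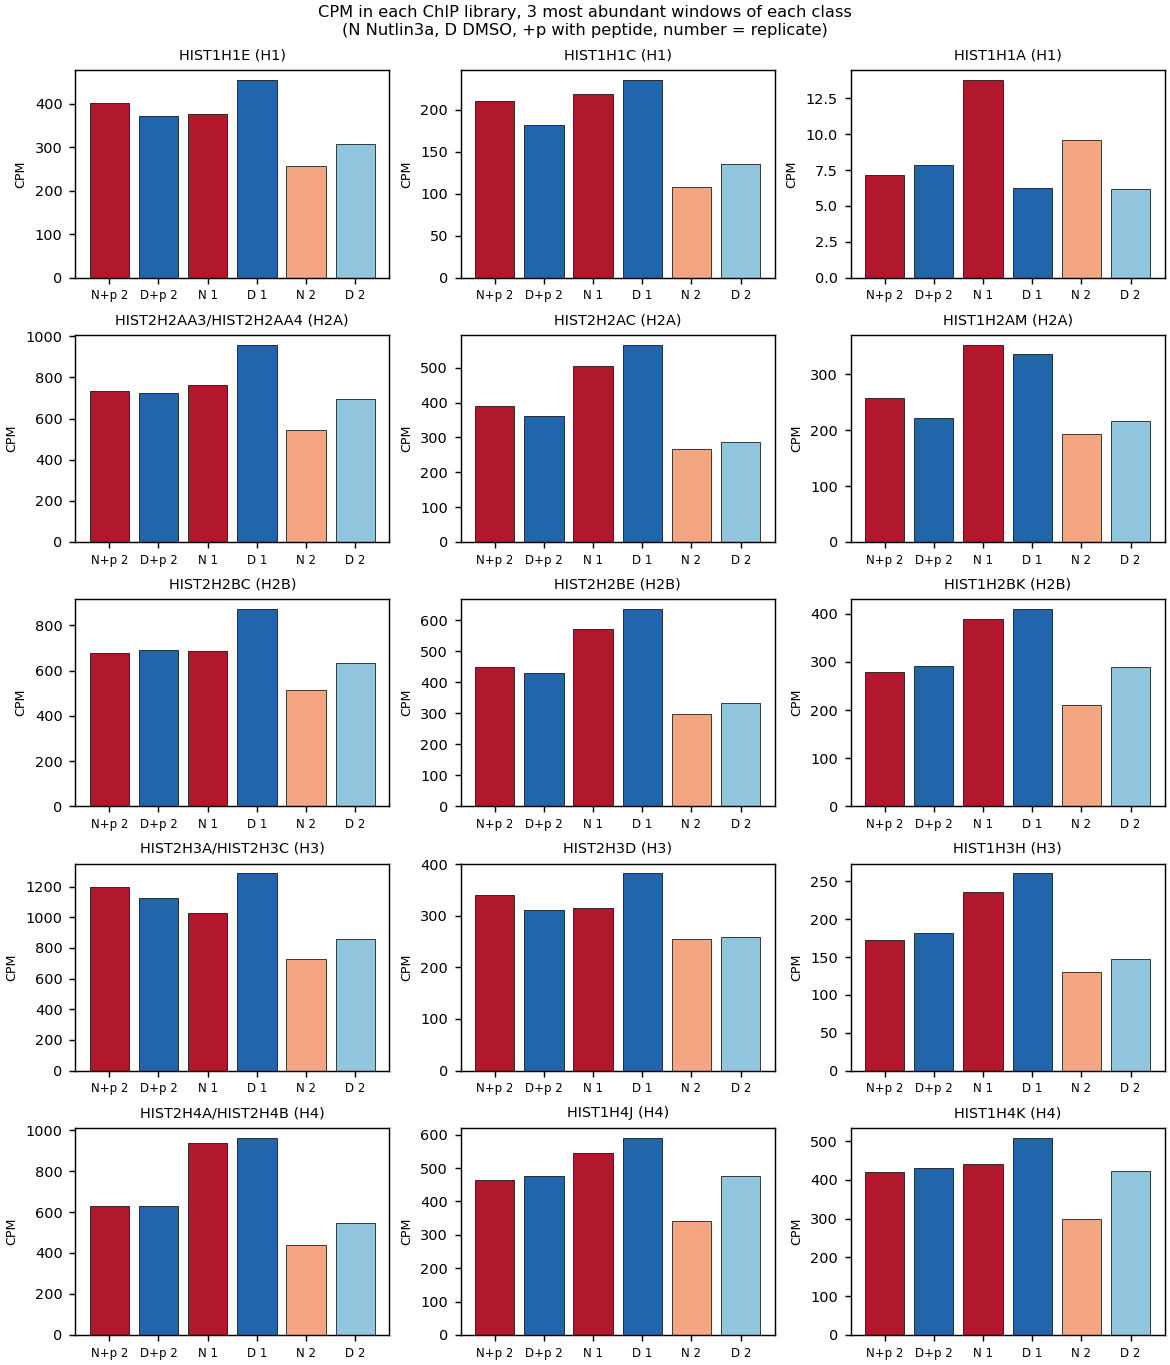
CPM (y axis, from 0) in each of the 6 ChIP libraries (x axis) for the 3 most abundant windows of each class, 1 class to a row. In most of these windows the replicate 1 bars stand above the replicate 2 bars, and HIST1H1A, the third H1 window, stays near the floor.

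Other histone genes and the histone supply machinery were called in replicate 1 over replicate 2 at shares that can be set against the 2.62% of all windows that were higher. Of 12 replication-independent histone genes, which are transcribed outside S phase as well, 1 was higher in replicate 1, H2AFV, with 71.9 CPM (Nutlin3a) and 79.6 CPM (DMSO) in replicate 1, against 67.8, 67.8, 35.4 and 45.4 CPM in replicate 2 (log2 fold change 0.90 ± 0.23, SE; edgeR adjusted p = 0.0052). Of 19 genes of the histone locus and of histone mRNA processing, such as NPAT, SLBP and CASP8AP2, 0 passed the threshold in either direction, and of 17 histone chaperone genes, such as ASF1B and CHAF1B, 0 did. SLBP, which binds the stem-loop, had 73.4 CPM (Nutlin3a) and 141 CPM (DMSO) in replicate 1, against 110, 108, 107 and 133 CPM in replicate 2. H3F3B, a gene for the replacement histone H3.3, had 276 and 393 CPM, against 343, 296, 317 and 321 CPM. The median log2 fold changes of the 3 lists were 0.10, 0.14 and 0.11. For Nutlin3a, the peptide under each treatment and their difference, 0 genes of these lists were called. ChIP was over input at 7 of 12 replication-independent histone genes, 4 of 19 locus and processing genes (with ZNF473 lower) and 7 of 17 chaperone genes, where 25.1% of all windows were higher and 15.5% lower.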

How the data were processed

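Members and gene lists were chosen with earlier results of these data known. Values were raw read counts per 1000-bp window, deposited by the authors (hg38, per the submitters' processing notes); the sources used here name no aligner or counter. The authors also deposited a scaled signal, equal to the counts times 1 constant per library, from which the constants (0.595 to 1.82) were read as an alternative scaling. CPM and tests were computed from the counts with edgeR 4.0.16 in R 4.3.3: TMM scaling, filterByExpr (minimum count 10), quasi-likelihood tests on all windows, Benjamini-Hochberg threshold 0.05. A fit of 4 groups to the 6 ChIP libraries kept 25901 windows (2 residual degrees of freedom); the lone peptide libraries were assumed to vary like the others. A fit to all 14 libraries kept 21504 windows. Ratios between single libraries used a prior count of 2. Intervals are 95% intervals from the fit. DESeq2 1.42.0 was an alternative. The code was tested on simulated counts. Member rows for 1 window counted once, and windows are 1-based. Shares and medians over all windows count every row kept by the fit, so a window listed under several genes counts more than once there. The deposited counts have 28159 rows for 27826 distinct windows. Named genes were, per class, the 3 highest and the lowest by mean CPM, those past the threshold in a condition comparison or with its 3 smallest p in each direction, members off chromosome 6, testis-specific members, and others where said or where a run begins or ends. No sample column was left unused. Promoters came from RefSeq (GRCh38.p14), matched by accession. Alternatives were other scalings, filters, tools, distinct windows, a replicate block and leaving out libraries.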

Additional observations from a re-analysis of the deposited data

How the results depend on the processing

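The count of histone windows past the threshold stayed at 0 under all alternatives run for the difference of the Nutlin3a response with and without peptide. For Nutlin3a over DMSO without peptide, and for the peptide under DMSO and under Nutlin3a, it was 0 under every alternative that kept all the libraries compared. Some windows passed when single libraries were left out. Those fits have 1 library left in a Nutlin3a or DMSO group, so their counts are not given. Where leaving out a library left a group with 1, that library was assumed to vary like the other groups. In Nutlin3a over DMSO, HIST1H4C (log2 fold change 0.02 as reported) ran from -1.22 to 1.23 when single libraries were left out. The median log2 fold change of the 72 windows, -0.01 as reported, was -0.57 to 0.33 when single libraries were left out and 0.61 with the authors' constants, where all windows had a median of 0.53; with peptide the constants gave 0.50 against 0.09 as reported. The count over input, 51 in either direction, was 40 to 54 under its alternatives, although DESeq2 size factors and total counts shifted the median of all windows to -0.23 and -0.33, against -0.04. Replicate 1 over replicate 2 gave 34 to 43 windows under its alternatives by edgeR and 16 with DESeq2. With a replicate block, 0 windows were called for Nutlin3a, with a median of -0.04, 0 for the peptide under either treatment and 0 for the difference; the medians of windows over input were then 0.19 for the peptide under DMSO and 0.42 under Nutlin3a. Replicate 1 deviations of Nutlin3a and DMSO correlated at 0.456 over 25901 windows and at 0.746 over the 47 histone windows over input. With 2 pairs and no such statement in the labels, the numbers were still not taken to pair the libraries. Input depth limits the 4 untested windows, and 1 or 2 libraries a group limit all condition comparisons.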
